A study of Danio rerio with 8 samples.

Results

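The loci described are 3 zebrafish loci whose long non-coding RNA models share exons with clusters of microRNA precursors: XLOC_000292 and XLOC_016116, which hold precursors of the mir-17, mir-18 and mir-92 types, and XLOC_015999, which holds a mir-15 and a mir-16 precursor. They were chosen by locus identifier, and every exon record filed under those identifiers was taken. The loci are 3 of the 1014 in the zebrafish catalogue and account for 20 of its 4540 exon records and 15 of its 1425 transcripts. Of these transcripts, 4 are host models whose names begin with Zv9_ and 11 are RefSeq precursor records of 1 exon each. By their names, none of the 4 host models is thus a linc- model, and the share of linc- models in the catalogue is not given here. Each of the 11 RefSeq records matched a microRNA gene by accession. The group is named after these precursors, so the match is no independent check of its name.

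The catalogue accompanies ribosome profiling, the sequencing of RNA fragments that ribosomes protect from nuclease, in whole wild-type TL/AB embryos at 8 stages. The stages were 2 to 4 cells, 256 cells, 1k cells, Dome, Shield, Bud, 28 hours and 5 days after fertilization. Each had 1 library from pooled embryos, and no agent or mutation is named for any of them. No footprint value per library was analysed, so the depth is unknown here, no stage was compared with another, and the loci were described with 0 statistical tests. All positions below are on the Zv9 (danRer7) build, and they are annotation coordinates with no replicates and no measured error.

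A microRNA is cut from a longer primary transcript. The nuclear enzyme Drosha frees a hairpin precursor from that transcript, Dicer trims the hairpin, and the short product guides Argonaute proteins to messenger RNAs through its seed. When several hairpins lie on one primary transcript, a single promoter can supply them all. In mammals the mir-17-92 cluster is known for promoting proliferation and growth of embryonic tissues and for being amplified in lymphomas. The mir-15 and mir-16 pair is known there for restraining the cell cycle and the survival factor BCL2.

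The locus with the most precursors was XLOC_000292, on the plus strand of chromosome 1 at chr1:2804473-2807213. Its single host model, Zv9_00000127, had a first exon of 207 nt from 2804473 to 2804679, an intron of 1354 bp and a last exon of 1180 nt from 2806034 to 2807213. The spliced length was 1387 nt, of which the last exon made up 85.1%. All 6 precursors of the locus lay wholly inside that last exon, and the first exon and the intron held 0 of them.

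In the direction of transcription the order was mir17a-1, mir18a, mir19a, mir20a, mir19b and mir92a-1, which is also the order known from the mammalian cluster. The first precursor, mir17a-1, was listed at 138 nt from 2806071 to 2806208 and began 37 bases after the start of the exon. Behind it, mir18a was listed at 83 nt from 2806232 to 2806314, with 198 bases of the exon before it. Next came mir19a, at 89 nt from 2806384 to 2806472 and 350 bases into the exon. It was followed by mir20a, whose product belongs to the same seed family as that of mir17. This record was the longest of the 6 at 153 nt, ran from 2806565 to 2806717 and began 531 bases into the exon. The mir19b record covered 87 nt from 2806750 to 2806836, beginning 716 bases into the exon. The last precursor, mir92a-1, covered 85 nt from 2806869 to 2806953 and began 835 bases into the exon.

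The precursors of XLOC_000292 were packed closely but not evenly. The gap, counted from the last base of a precursor to the first base of the next, was 23 nt between mir17a-1 and mir18a. It was 69 nt between mir18a and mir19a and 92 nt between mir19a and mir20a, the widest of the cluster. Both remaining gaps, from mir20a to mir19b and from mir19b to mir92a-1, were 32 nt. By this measure the outer pairs were closer together than the precursors around mir19a, and the median of the 5 gaps was 32 nt. Start to start, the spacings in the same order were 161, 152, 181, 185 and 119 nt. The pattern around mir19a was not kept there, since the records differ in length. From the first base of mir17a-1 to the last base of mir92a-1 the cluster measured 883 nt. Precursors filled 635 nt of it, or 71.9%, and they filled 53.8% of the last exon and 45.8% of the spliced host.

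**Figure D1:**
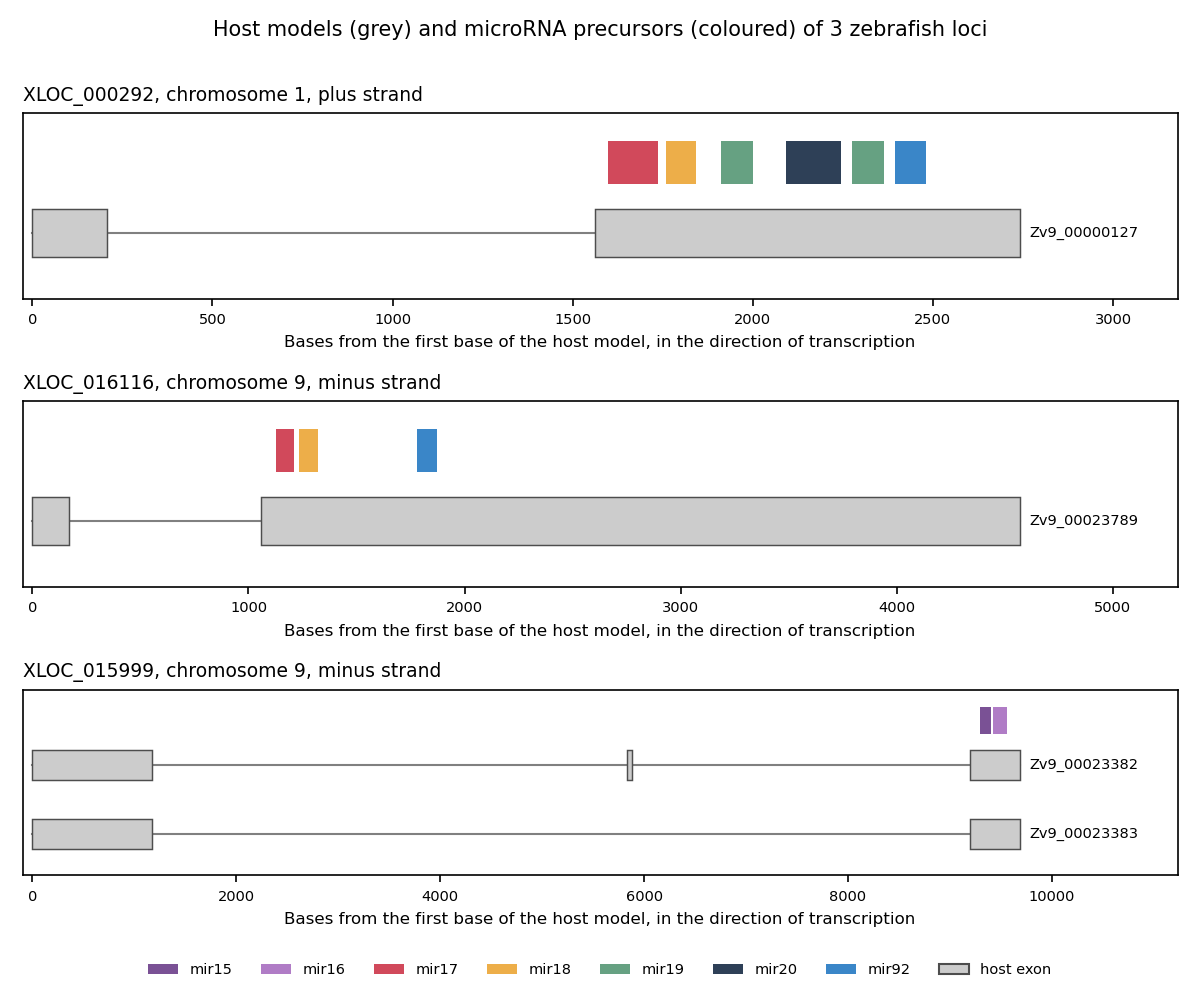
Host models and precursors of the 3 loci, with bases from the first base of the host model on the x axis of each panel. Grey boxes are exons, grey lines introns and coloured boxes precursors; in every panel the precursors stand over the last exon, and the 2 models of XLOC_015999 differ by 1 middle exon of 43 nt.

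The second mir-17 type locus, XLOC_016116, lay on the minus strand of chromosome 9 at chr9:55417517-55422084. Its host model, Zv9_00023789, likewise had 2 exons. The first exon measured 169 nt, from 55421916 to 55422084, the intron 891 bp, and the last exon 3508 nt, from 55417517 to 55421024. That exon made up 95.4% of the spliced length of 3677 nt, and all 3 precursors of the locus lay wholly inside it. Their order of transcription was mir17a-2, mir18b and mir92a-2, the order of the same types at XLOC_000292.

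At XLOC_016116 mir17a-2 was listed at 83 nt from 55420876 to 55420958 and began 66 bases after the start of the last exon. The mir18b record covered 87 nt from 55420763 to 55420849, 175 bases into the exon, and the gap between it and mir17a-2 was 26 nt. The mir92a-2 record covered 95 nt from 55420212 to 55420306, 718 bases into the exon. A gap of 456 nt separated mir18b from mir92a-2, and no other record of the locus fell in it. The cluster measured 747 nt, of which precursors filled 265 nt or 35.5%. Behind mir92a-2 the host model ran on for 2695 bases, so precursors filled 7.55% of the last exon.

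Set side by side, the mir-17 type loci shared the layout of their 5′ part and differed in what followed the precursors. Both hosts had 2 exons with a short first exon, 207 nt at XLOC_000292 and 169 nt at XLOC_016116, and at both no more than 66 bases of the last exon preceded mir17. Counted along the spliced host, 244 bases preceded mir17a-1 and 235 bases preceded mir17a-2, a difference of 9 bases. Opposite differences offset each other there. At XLOC_016116 the first exon was 38 nt shorter, and mir17 began 29 bases farther into the last exon. The value also depends on the mir17 records, listed at 138 and 83 nt. For mir18, listed at 83 and 87 nt, the spliced distances were 405 and 344 bases, a difference of 61. For mir92 they were 1042 and 887 bases, a difference of 155. The unspliced distances from the host start to mir17 were 1598 and 1126 bases, with introns that differed by 463 bp. The parts of this layout also occurred at other hosts. Of the 8 other microRNA hosts 5 had 2 exons, and their first exons measured 63 to 657 nt, against a catalogue median of 243 nt. Spliced distances from host start to precursor at other hosts included 196 bases for mir148 and 293 for mir133a-2, but also 27 for mir9-3 and 2210 for mir1-2. After the mir92 precursor, 260 bases of host remained at XLOC_000292 against 2695 at XLOC_016116, which is 10.4-fold more. The last exon was accordingly 2.97-fold longer at XLOC_016116.

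The interval between mir18 and mir92 was where the precursor content differed. It measured 554 nt at XLOC_000292 and held 3 precursors, mir19a, mir20a and mir19b, which filled 329 nt or 59.4% of it. At XLOC_016116 the corresponding interval measured 456 nt, 98 nt less, with no precursor record of the locus inside. The bases outside precursors in this interval numbered 225 at XLOC_000292. All 456 nt lay outside precursors at XLOC_016116. The sequence of neither interval was used here.

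Spacing between the shared types depended on where it was measured from, because the mir17 records differ in length by 55 nt. From start to start, mir17 and mir18 lay 161 nt apart at XLOC_000292 and 109 nt apart at XLOC_016116, 52 nt less. From the end of mir17 to the start of mir18 the values were 23 and 26 nt, so that XLOC_016116 was then wider by 3 nt. Start to start, mir18 and mir92 lay 637 and 543 nt apart, and mir17 and mir92 lay 798 and 652 nt apart. Those longer distances were shorter at XLOC_016116 by each way of measuring.

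**Figure D2:**
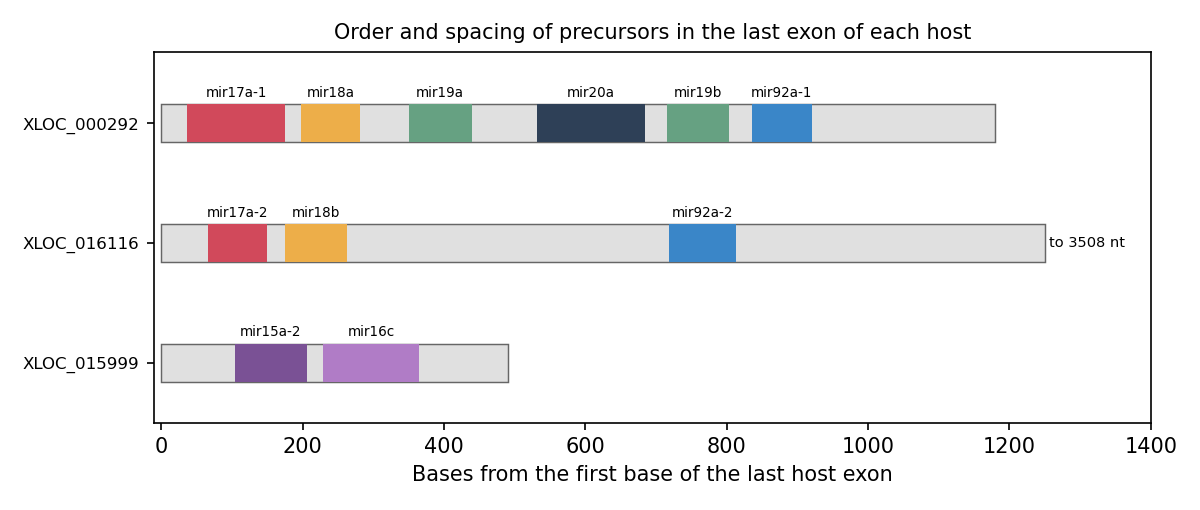
Precursors in the last host exon, with bases from the first base of that exon on the x axis and 1 row per locus; grey bars are the exon and coloured boxes the precursors. The mir17 precursors begin 37 and 66 bases into the exon, and the stretch between mir18b and mir92a-2 is without a coloured box; the bar of XLOC_016116 shows only the first part of its 3508 nt.

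XLOC_015999, the host of the mir-15 and mir-16 pair, lay on the minus strand of chromosome 9 at chr9:30685535-30695218, which is 24722298 bp from XLOC_016116. It was the only one of the 3 loci with more than 1 host model. Both models began and ended at the same bases and shared a first exon of 1175 nt, from 30694044 to 30695218, and a last exon of 490 nt, from 30685535 to 30686024. Zv9_00023382 carried a middle exon of 43 nt between them, from 30689341 to 30689383, with introns of 4660 and 3316 bp. Zv9_00023383 lacked it and had a single intron of 8019 bp. Their spliced lengths were 1708 and 1665 nt.

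Both precursors of XLOC_015999 lay in the last exon that the models share, so the middle exon did not alter their place in it. In the order of transcription mir15a-2 came first, listed at 102 nt from 30685819 to 30685920, with 104 bases of the exon before it. After a gap of 23 nt followed mir16c, listed at 136 nt from 30685660 to 30685795, and the host ended 125 bases behind it. The 2 records filled 238 of the 261 nt of the cluster, or 91.2%, and 48.6% of the exon. This order, mir-15 before mir-16, is also that of the mammalian pair that lies in the non-coding host gene DLEU2, which is not the only such pair in mammals.

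The host of the mir-15 pair differed from the mir-17 type hosts in its proportions. Its first exon was longer than its last, at 1175 against 490 nt, whereas at XLOC_000292 and XLOC_016116 the first exon was the shorter. A longer first exon was found at 217 of the 888 multi-exon loci of the catalogue, or 24.4%, and at 0 of the 8 other loci with a microRNA precursor. The distance from the host start to the first precursor was 9298 bases before splicing. After splicing it was 1322 bases in Zv9_00023382, against 244 and 235 at the mir-17 type loci. In Zv9_00023383, which lacks the middle exon, the spliced distance is shorter by the 43 nt of that exon. The middle exon of 43 nt was short for the catalogue, where 87 of 1180 internal exons (7.37%) were as short or shorter and the median was 109 nt.

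Because every precursor of the 3 loci lay in a last exon, its nearest splice site could only be the acceptor that opens that exon. The first precursor began 37, 66 and 104 bases behind it, at XLOC_000292, XLOC_016116 and XLOC_015999 respectively, and the other precursors between 175 and 835 bases behind it. Counted end to start, the shortest gaps between neighbours were alike, at 23, 26 and 23 nt. Each separated the first precursor of its locus from the next, which is the only gap at XLOC_015999. Start to start, these first pairs lay 161, 109 and 125 nt apart. By that measure the closest pair at XLOC_000292 was mir19b and mir92a-1, at 119 nt. Across the 8 gaps of the 3 loci the range was 23 to 456 nt with a median of 32 nt. Precursor records measured 83 to 153 nt with a median of 89 nt. These lengths are those of the RefSeq records, and the gaps depend on them.

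Together the 3 loci held 11 of the 21 microRNA precursors found in the catalogue, or 52.4%. The loci were grouped as hosts of clustered precursors, so a large share follows from that choice and is no separate result. The other 10 precursors were spread over 8 loci, of which 2 held a pair. Those pairs were mir1-2 with mir133a-1, microRNAs of muscle, 2097 nt apart, and mir144 with mir451a, microRNAs of red cells, 43 nt apart. Of these 10 precursors 9 lay wholly inside a host exon, and 7 of them in the last one. The exceptions to the last exon were mir9-1 in an internal exon and mir9-3 in a first exon, while mir144 spanned an acceptor and lay only partly inside. With the first precursor wholly inside an exon taken at each locus, the bases of exon ahead of it ranged from 27 to 1665 over the 8 other loci, with a median of 46. Over the 6 of these loci where it lay in the last exon they ranged from 39 to 1665, with a median of 85. The 37, 66 and 104 bases of the loci described here fall inside the first range, and 66 and 104 inside the second. These values are given as a description, and no difference between the sets was tested.

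**Figure D3:**
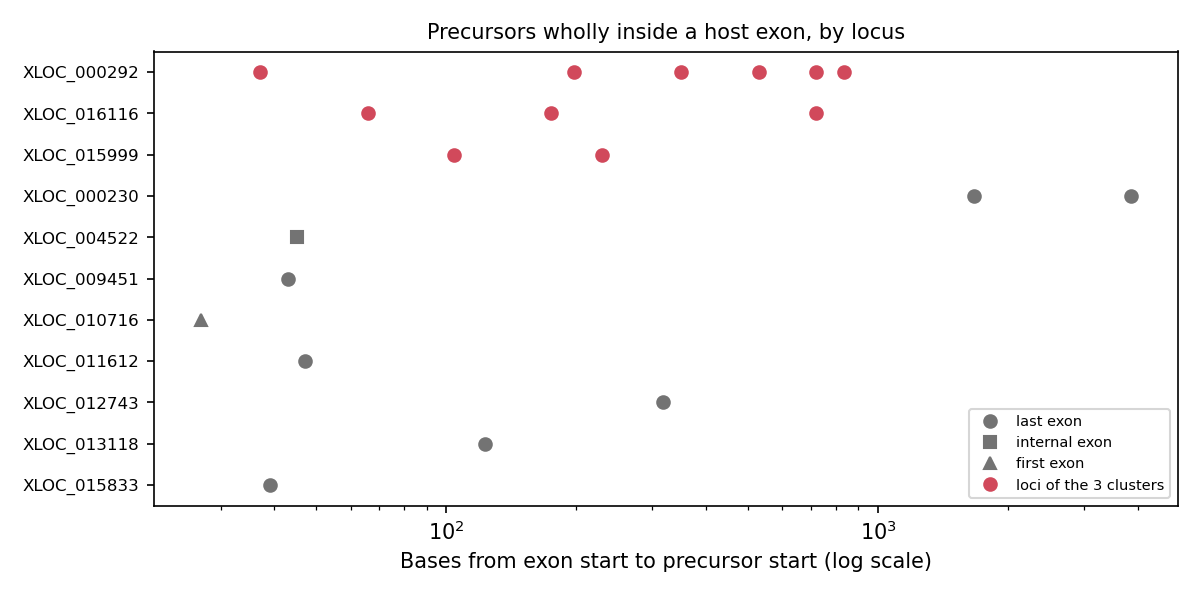
Bases from the start of the host exon to the start of each precursor (log scale) for the 20 precursors wholly inside an exon, 1 row per locus. Red points are the 3 loci described, grey points the 8 other loci, and the shape gives the kind of exon; the first red point of each row lies at 37, 66 and 104 bases.

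Among all 1014 loci the hosts differed in spliced length, and that of XLOC_016116 had the greatest of the 3. With each locus taken at its longest model, its spliced length ranked 119th from the longest and its last exon of 3508 nt ranked 86th, where a single-exon model counted as its own last exon. At XLOC_000292 the ranks were 417 and 312, and at XLOC_015999 they were 333 and 621. The catalogue medians were 1163 nt for the spliced length and 699 nt for the last exon. In genomic span the loci covered 2741, 4568 and 9684 bp in the order XLOC_000292, XLOC_016116 and XLOC_015999, against a median of 6800 bp. A longest model of 2 exons, as at both mir-17 type loci, was found at 420 of the 1014 loci (41.4%). With 7 transcripts XLOC_000292 was among the 5 loci with the most, but 6 of these are precursor records.

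**Figure D4:**
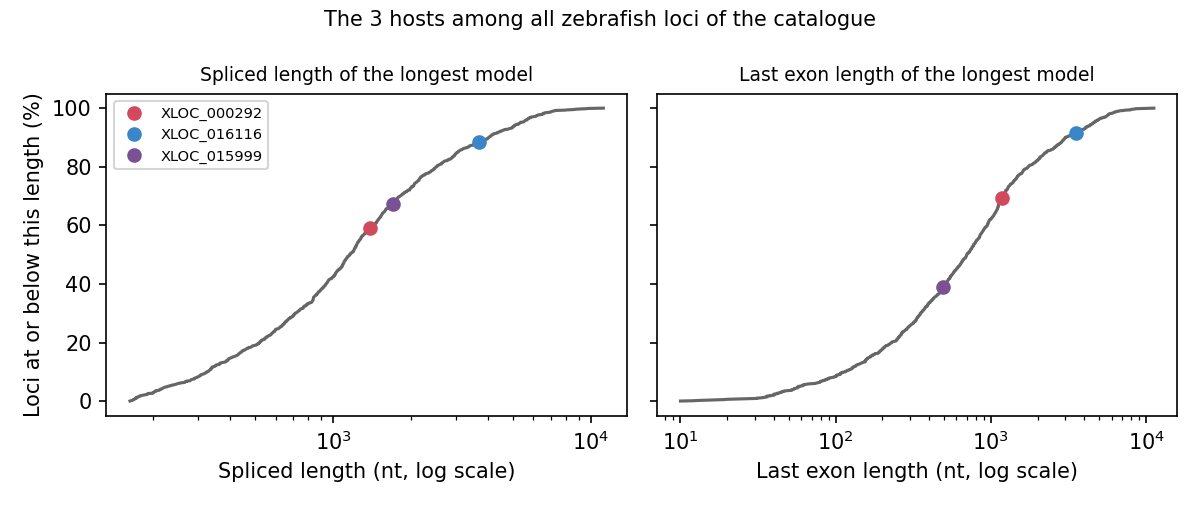
Percent of the 1014 zebrafish loci at or below a given spliced length (left) or last exon length (right), both in nt on a log scale. Coloured points are the 3 hosts; XLOC_016116 lies highest on both curves, and XLOC_015999 has the shortest last exon of the 3 at 490 nt.

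None of the hosts overlapped another catalogue locus on either strand (0 of 3), and overlap was uncommon in the catalogue as a whole, at 47 of 1014 loci (4.64%). The nearest catalogue locus to XLOC_000292 was XLOC_000642, 1772552 bp away on the side of lower coordinates, and on the other side XLOC_000304, 2723603 bp away. XLOC_015999 had neighbours at 558882 bp and 583728 bp. For XLOC_016116 the nearest was XLOC_016110 at 2878689 bp, and no catalogue locus lay at higher coordinates on chromosome 9. Over the 992 loci that share their chromosome or scaffold with another locus, the median distance to the nearest one was 373266 bp. A nearest locus farther away than that of XLOC_015999 was found for 37.9% of them, against 7.26% for XLOC_000292 and 2.32% for XLOC_016116.

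RefSeq genes of the GRCz12tu assembly, from which names and gene order alone were taken, included 24 zebrafish precursors whose names carry the numbers of the mir-17 and mir-15 families. Of these, 11 were in the catalogue and all of them in the 3 loci described, while 13 were not. The loci were grouped by these families, so finding all 11 there is no separate result. The share of all zebrafish microRNA precursors that the catalogue holds is not given here, so 11 of 24 has no background to be read against. By type the catalogue held 9 of 17 precursors of the mir-17 type and 2 of 7 of the mir-15 type. Both mir17 precursors of the table were present, as were 2 of 3 for mir18, 2 of 4 for mir19, 1 of 2 for mir20 and 2 of 3 for mir92. For mir15 the count was 1 of 4, for mir16 it was 1 of 3, and mir25, mir93 and mir363 had 0 of 1 each. Where the 13 others lie relative to the models was not examined.

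In that table the 24 precursors formed 9 runs with no other microRNA or coding gene starting inside a run. The 3 clusters appeared there complete and with the same neighbours inside each, that of XLOC_000292 with coordinates running the opposite way. The named coding genes next to the XLOC_000292 cluster were gpc5a, which encodes a glypican, a proteoglycan of the cell surface, and slitrk5, which encodes a neuronal membrane protein. Next to the XLOC_016116 cluster they were gpc6b, another glypican gene, and slitrk5b. Only named coding genes were taken as neighbours, and their distances are not given here. On this basis a glypican gene also neighboured both mir-17 type runs of chromosome 14 that the catalogue lacks, which makes 4 of the 9 runs. The glypican genes of chromosome 14 were gpc2 for the run of mir25, mir19d and mir93 and gpc3 for that of mir363, mir19c, mir20b and mir18c. The run of mir25, mir19d and mir93 itself overlapped another coding gene, mcm7. The remaining mir-17 type run, mir92b alone on chromosome 16, lay between hjv and thbs3a, neither of which is a glypican gene. How often a glypican gene neighbours other genes was not examined. The mir16c and mir15a-2 run overlapped trim13, a ubiquitin ligase gene, as well as a gene listed as lncRNA, and lay between spryd7b and rnaseh2b. A related run of mir16b and mir15a-1 on chromosome 1, which the catalogue lacks, lay between spryd7a and dleu7. Genes listed as lncRNA also overlapped the clusters of XLOC_000292 and XLOC_016116, the mir16b and mir15a-1 run, and mir92b. No such gene was listed over the other runs. Whether these lncRNA genes correspond to the host models was not examined. The table gives no strand, and gene order on Zv9 itself was not examined.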

How the data were processed

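Per the labels' protocols, flash-frozen embryos were lysed with cycloheximide, digested with RNase I and pelleted through sucrose. Bowtie2, TopHat2 and bedtools were used on Zv9 (danRer7), per the submitters' processing notes. Their versions and settings were not given in the sources used. The deposited table used here holds exon coordinates, counted from 1, with no score or expression value. Per the authors' deposited description, it combines earlier lncRNA models (linc- and Zv9), other developmental transcripts and RefSeq transcripts of the same loci. How transcripts were grouped into loci is not recorded in those sources, and that grouping decides which precursors are listed. There were 0 per-sample columns left unused.

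Exons were ordered along the direction of transcription, from the strand. Each host was represented by its Zv9_ model of greatest spliced length. Precursors were named by RefSeq accession without version from a GRCz12tu table, which matched 26 of 27 RefSeq transcripts of the catalogue and 11 of 11 here. All 3 loci, their models and their precursors are named by rule. The loci, lists and settings were chosen with earlier results of these data known. The geometry was tested on a simulated locus and its mirror image. Python 3.11.15 and matplotlib 3.10.9 were used. Precursor sequences and the mouse catalogue were not used here.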

Additional observations from a re-analysis of the deposited data

How the results depend on the processing

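Of 49 alternative values for 25 results, 28 were identical, 20 moved and 1 reversed. The count of precursors inside exons and the distances to host start and host end were identical with the shortest Zv9_ model and with merged exons. The distance to the nearest splice site was identical with the shortest model and with the boundaries of all models joined. None of these settings could change these values. XLOC_000292 and XLOC_016116 have 1 host model each. The 2 models of XLOC_015999 share their first base, their last base and the last exon, which holds both precursors. The distance to the host end in spliced bases was also fixed, since no intron follows the precursors. These identical values are therefore no check of the results. In spliced bases the distance to the host start was 244 at XLOC_000292, 235 at XLOC_016116 and 1322 at XLOC_015999, because introns are left out. The value for XLOC_015999 is that of the model with the middle exon, and it is smaller in the model without that exon. The median spacing of neighbours was 161, 326 and 125 nt from start to start, and 152, 329 and 142 nt from centre to centre, a setting chosen after seeing the data, because both add precursor length to the gap. The difference of XLOC_016116 minus XLOC_000292 from mir17 to mir18 reversed from -52 to 3 nt measured end to start and was -22.5 nt between centres. From mir18 to mir92 it was -98 and -91 nt, and from mir17 to mir92 -91 and -113.5 nt. With merged exons the ranks by spliced length were 439, 123 and 353 and by last exon 313, 87 and 614. Matching by accession only kept 11 family members in the catalogue. The identity of paired precursors was not run, because no sequences were used here. No paired analysis was possible because each stage has 1 library and the results come from no test. The read depth behind the host models is unknown here, so its bearing on exon ends was not tested.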
